A study of Mus musculus with 12 samples.

Results

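Mouse embryonic fibroblasts (MEFs) that had been given either of 2 reprogramming mixtures for 4 days switched on 63 genes that were not well above background on any array of control MEFs or of primordial germ cells (PGCs), the embryonic precursors of eggs and sperm. These genes were chosen on the measured values. A gene was taken when none of its probes was well above background on the 3 arrays of control MEFs or the 3 arrays of E15.5 PGCs, and all 3 arrays of one treatment had its brightest probe well above background. The flag is the scanner software's own, and "silent" and "on" stand for its state in what follows. Of 19711 genes with a probe, 2237 were silent in control MEFs and 1356 were silent in control MEFs and PGCs. The 63 genes were 4.65% of these 1356. With OS 59 of them were on (4.35% of the silent genes) and with OCKS 54 (3.98%). Since the flag chose the genes, their height over control MEFs and PGCs is given as a description, with no test.

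The series compared gene expression in 4 groups on single-colour microarrays, with 3 biological replicates a group and 12 arrays in all. Control MEFs came from male E14.5 embryos of a cross between Vasa::RFP and Oct4_delta_PE-GFP transgenic C57BL6/J mice, and their labels name no treatment. OS+chem+VA5+Dnmt1 KD was given to MEFs of the same cross, and these were collected on day 4. OS stands for plasmids with Oct4 and Sox2, chem for tranylcypromine, BIX-01294 and DZNep, which inhibit enzymes that add or remove histone methyl groups, VA5 for valproic acid (VPA) and an inhibitor of the TGF-beta receptor ALK5, and Dnmt1 KD for siRNA against the maintenance DNA methyltransferase. OCKS+chem+VA5+Dnmt1 KD differed in its plasmid, a tandem vector with Oct4, c-Myc, Klf4 and Sox2 under a CAG promoter. OS used vectors under an hCMV*1 promoter. E15.5 PGCs came from female genital ridges of MCH mice crossed with Oct4_delta_PE-GFP mice. No array held MEFs given the transfection reagent, a control siRNA or 1 component alone, so the components of the mixtures cannot be told apart here, nor can treatment be told apart from transfection.

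Silencing of tissue-specific genes in a fibroblast is kept by several layers. DNA methylation is copied at each division by Dnmt1. Methyl groups at some positions of histone H3 mark closed chromatin, while at others they mark open chromatin. Histone deacetylases, which valproic acid inhibits, keep nucleosomes compact. Genes that depend on such marks include germline genes, but also genes of liver, skin, placenta, brain and immune cells, many of which are in addition controlled by signal-driven factors such as NF-kB, AP-1 and the interferon response factors. The genes described here were not well above background on any array of control MEFs or female E15.5 PGCs, which does not exclude a weaker signal there.

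Dnmt1, the knockdown target, lay at -1.05 (range -1.22 to -0.86, n = 3) in control MEFs, between -3.34 and -2.85 with OS and between -3.69 and -3.09 with OCKS, in log2 signal relative to the array's 75th percentile. It fell by 2.05 on the log2 scale with OS (SE 0.168, limma adjusted p = 2.35e-06) and fell by 2.34 with OCKS (adjusted p = 8.55e-07). The Pou5f1 (Oct4) probe rose by 5.78 with OS (adjusted p = 5.04e-07), whereas its difference with OCKS was 0.84 (95% confidence interval -0.01 to 1.68, adjusted p = 0.0731). Myc rose by 1.57 with OS (adjusted p = 0.000149) and by 1.30 with OCKS (adjusted p = 0.000521). Sox2, which both mixtures carry, differed from control MEFs by 0.24 with OS (adjusted p = 0.754) and by 1.30 with OCKS (adjusted p = 0.093). Klf4 differed from control MEFs by -0.03 with OS (adjusted p = 0.9) and by -0.21 with OCKS (adjusted p = 0.324). Between the treatments (OCKS minus OS) Klf4 differed by -0.19 (95% confidence interval -0.60 to 0.22, adjusted p = 0.623) and Myc by -0.27 (-0.78 to 0.24, adjusted p = 0.559), and only the OCKS plasmid carries these factors. Whether the Pou5f1, Sox2, Klf4 and Myc probes lie in the part of the transcript that each plasmid carries was not tested. The 8 fibroblast markers summed to 9.19 to 9.76 in control MEFs, 8.39 to 9.08 in treated MEFs and 2.43 to 2.60 in PGCs, with 5 of the 8 lower and 2 higher on every treated than on every control MEF array. The 8 germ cell markers summed to -0.13 to 0.01, -0.66 to 0.39 and 7.31 to 7.68, with 4 of the 8 higher on every treated array (Dazl, Mael, Sycp3 and Stra8) and 1 lower (Nanos3). Nanos3 weighs most in the sum of control MEFs, with means of -0.32 there, -1.67 with OS and -1.61 with OCKS. With OS the brightest of the 8 was Pou5f1 (mean -1.13), which the plasmids deliver. Dazl had means of -9.72 in control MEFs, where it was silent, -2.62 with OS and -2.92 with OCKS. The MEFs were labelled male and the PGCs female. The Y-linked Ddx3y was on for every MEF array, control and treated, and for 0 of 3 PGC arrays, and Uty showed the same. Kdm5d was on for 0 of 3 PGC arrays too. The Y-linked Eif2s3y was on for 3 of 3 PGC arrays, at a mean of -4.29 against 1.58 in control MEFs. Xist, the RNA of the inactive X chromosome, had means of -7.39 in control MEFs, -4.34 with OS, -3.85 with OCKS and -3.85 in PGCs. The arrays had between 71.9% and 85.6% of their spots well above background, with 71.9% to 79.1% on treated arrays, 73.2% on control MEF replicate 1, and 81.7% to 85.6% on the 2 other control arrays and the PGC arrays. The dimmest signal flagged well above background lay between -8.17 and -7.19 on the same scale. Treated and control MEFs never shared a slide, so slide and treatment cannot be told apart in that comparison, while OS replicate 1 and OCKS replicate 1 shared 1.

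The plot of the genes by array shows the 6 treated arrays against the 6 silent ones.

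**Figure D1:**
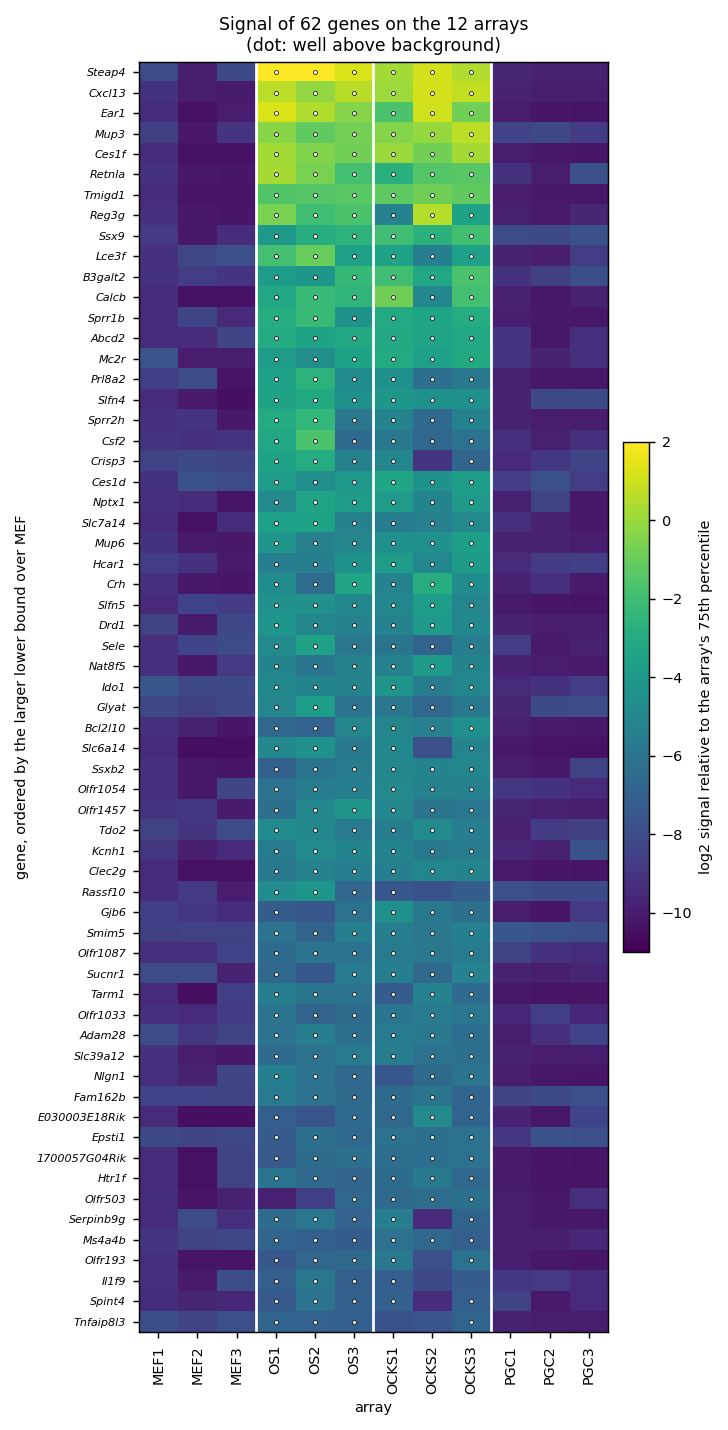
Signal of 62 of the 63 genes (rows, ordered by the larger of their 2 lower bounds over control MEFs) on the 12 arrays (columns), as log2 signal relative to the array's 75th percentile, with a dot where the probe was well above background. The dots are missing from the MEF and PGC columns and fill all 3 columns of at least 1 treatment, which the choice of genes fixed, and 13 of the 63 genes lack a dot on some treated array, such as Rassf10 and Olfr503, while colours within the treated columns differ between replicates, as for Reg3g and Csf2.

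Of the 63 genes, 50 were on with both treatments, 9 on all 3 OS arrays but not on all 3 OCKS arrays, and 4 the other way. No gene was confined to one mixture by this flag. Each of the 9 was still on with OCKS on 1 or 2 arrays (3 and 6 genes), and each of the 4 on 1 or 2 OS arrays (1 and 3 genes). Because the silent arrays give only a limit, each fold is a lower bound: the mean of the 3 treated arrays against the mean, over the 3 control arrays, of the higher of the dimmest signal well above background and the gene's own signal. The median bound was 2.87 in log2, or 7.3-fold, over the 59 genes on with OS, and 2.80, or 6.95-fold, over the 54 genes on with OCKS. It was at least 2-fold for 56 of the 59 and for 54 of the 54. It was at least 100-fold for 6 genes with each treatment. With normexp background correction and quantile normalization the median bounds were 0.99 and 0.96 in log2, with spike-in scaling 3.66 and 3.12. The number of genes depends on the flag that defines silence: with the scanner's flag for a positive and significant signal 5 genes were left (Ces1f, Clec2g, Olfr193, Slc6a14 and Tmigd1), and with a common floor of signal there were 118.

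**Figure D2:**
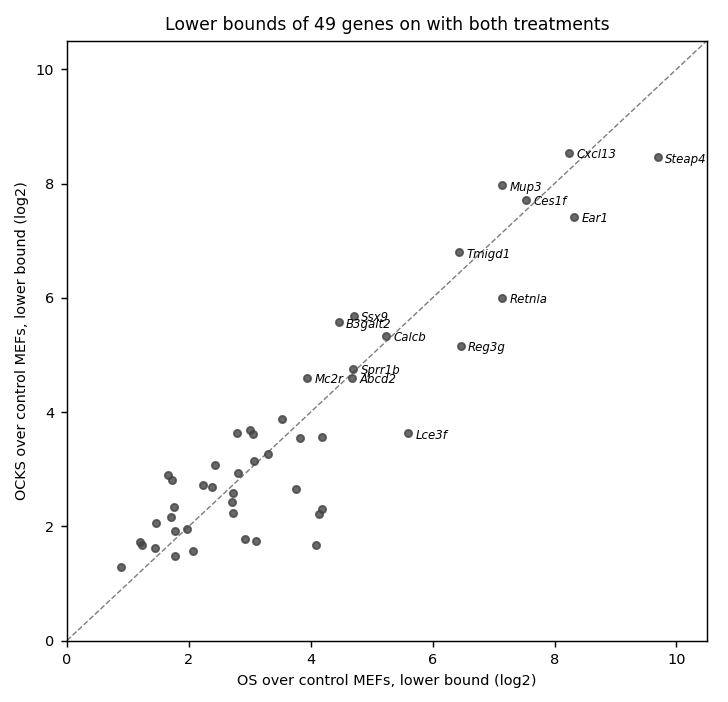
Lower bound of the fold over control MEFs (log2) with OS (x axis) and with OCKS (y axis) for 49 of the 50 genes on with both treatments, each dot 1 gene, with the dashed line at equal bounds. Steap4 and Cxcl13 lie at the top right at 9.70 and 8.24 with OS and 8.46 and 8.54 with OCKS, and most genes lie under 4 on either axis.

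Steap4 and Cxcl13 led the 63 genes by the larger of their 2 bounds. Cxcl13, a chemokine that draws B cells into lymphoid follicles, lay at -9.10, -10.00 and -10.06 on the MEF arrays and at -9.73, -9.93 and -9.93 on the PGC arrays. It lay at 0.65, -0.13 and 0.58 with OS and at 0.08, 1.11 and 0.80 with OCKS, near the 75th percentile of all probes. The treated arrays lay close together and far from the silent ones, at least 303-fold over control MEFs with OS and 372-fold with OCKS. Steap4, a metalloreductase of cell membranes that is induced in inflammation and in fat tissue, lay at 2.10, 2.11 and 1.26 with OS and at 0.19, 1.11 and 0.45 with OCKS, against -8.04, -9.91 and -8.14 in control MEFs. Every OS array of Steap4 was above every OCKS array, and its bounds of at least 829-fold and 351-fold with OS and OCKS were the largest and the second largest of the 63 genes in the respective treatment.

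The promoters of 5 immune genes, of both Schlafen genes and of both small proline-rich genes are printed here, since they carry the immune and epidermal groups below, to show which letters of signal-driven factors they hold. Each stretch is the 160 bases before the annotated start, 5′ to 3′ on the gene's strand, from RefSeq on build GRCm38.p6. Capitals mark TATAAA (the TATA box), GGGA, 4 bases of any kind and CC (NF-kB), TGANTCA (AP-1), and GAAA, 2 bases of any kind and GAAA (interferon response), searched on both strands, with no overlap between marked letters. The genes were chosen after these letters had been seen.
Cxcl13 (chr5:95956779-95956938, + strand): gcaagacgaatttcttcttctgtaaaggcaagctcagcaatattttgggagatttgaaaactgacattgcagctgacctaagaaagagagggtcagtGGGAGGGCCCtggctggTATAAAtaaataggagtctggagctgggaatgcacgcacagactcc
Steap4 (chr5:7960312-7960471, + strand): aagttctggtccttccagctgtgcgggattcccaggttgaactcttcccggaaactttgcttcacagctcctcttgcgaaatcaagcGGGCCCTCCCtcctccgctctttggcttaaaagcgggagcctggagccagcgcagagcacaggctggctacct
Reg3g (chr6:78468875-78469034, - strand): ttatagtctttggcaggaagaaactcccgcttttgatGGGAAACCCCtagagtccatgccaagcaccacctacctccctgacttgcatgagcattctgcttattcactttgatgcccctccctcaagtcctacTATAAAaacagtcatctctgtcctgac
Retnla (chr16:48842449-48842608, + strand): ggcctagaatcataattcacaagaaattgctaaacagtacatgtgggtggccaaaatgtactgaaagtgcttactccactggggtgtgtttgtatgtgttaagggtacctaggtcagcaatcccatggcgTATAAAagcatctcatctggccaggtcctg
Sele (chr1:164048074-164048233, + strand): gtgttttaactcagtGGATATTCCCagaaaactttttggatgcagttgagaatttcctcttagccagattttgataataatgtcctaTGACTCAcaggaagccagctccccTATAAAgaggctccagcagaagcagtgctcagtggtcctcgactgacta
Slfn4 (chr11:83175026-83175185, + strand): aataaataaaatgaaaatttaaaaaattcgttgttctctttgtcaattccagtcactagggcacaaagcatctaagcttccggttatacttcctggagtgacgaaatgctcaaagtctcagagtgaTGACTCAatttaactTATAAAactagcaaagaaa
Slfn5 (chr11:82951942-82952101, + strand): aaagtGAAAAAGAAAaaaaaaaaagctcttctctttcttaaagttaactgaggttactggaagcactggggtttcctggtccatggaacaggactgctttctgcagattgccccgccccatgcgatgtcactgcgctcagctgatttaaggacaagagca
Sprr1b (chr3:92438780-92438939, - strand): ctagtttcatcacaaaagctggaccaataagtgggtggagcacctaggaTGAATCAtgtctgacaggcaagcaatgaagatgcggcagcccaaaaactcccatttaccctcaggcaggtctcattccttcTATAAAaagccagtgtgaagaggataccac
Sprr2h (chr3:92385525-92385684, + strand): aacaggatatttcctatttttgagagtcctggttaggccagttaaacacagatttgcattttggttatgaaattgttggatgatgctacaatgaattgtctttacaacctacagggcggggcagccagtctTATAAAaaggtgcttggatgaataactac
Among 32817 RefSeq promoters of 300 bases, 13.6% held TATAAA, 20.7% the NF-kB letters, 7.81% the AP-1 letters and 3.43% the interferon letters, so each match is a description and not a binding site. Those windows are longer than the printed stretches of 160 bases, so these shares are not shares for such stretches. Of the 63 genes 46 (73%) had a promoter in the table, under the 80% set for a comparison of shares over the whole set, and that comparison was void. In the printed stretches Cxcl13, Steap4, Reg3g and Sele held the NF-kB letters, Sele, Slfn4 and Sprr1b the AP-1 letters, and Slfn5 the interferon letters.

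Chemokine, cytokine and other secreted immune signals gave 3 of the 17 genes of their list that were silent in both control groups (17.6%, against 4.65% of all silent genes). Beside Cxcl13 these were Csf2 and Il1f9. The share of all silent genes is lowered by the receptor (GPCR) list, which holds 572 of the 1356 silent genes with 10 members. The lists were chosen with earlier results of these data known, and no list was tested against that share. Csf2, the growth factor GM-CSF of granulocytes and macrophages, lay at -9.01, -9.21 and -9.00 in control MEFs, at -3.27, -1.68 and -6.43 with OS and at -5.82, -6.69 and -6.09 with OCKS. OS replicates 1 and 2 stood above the other 4 treated arrays, among which OS replicate 3 lay with the OCKS arrays. Csf2 was at least 17.0-fold over control MEFs with OS and 3.20-fold with OCKS. Il1f9 (interleukin-36 gamma) was one of the dimmest members, at -7.08, -5.83 and -7.06 with OS, with 1 of 3 OCKS arrays on.

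Acute-phase, antimicrobial and granule genes gave 4 of 28 silent genes (14.3%). In addition to Steap4 these were Ear1, an eosinophil-associated ribonuclease, Retnla, a resistin-like protein of alternatively activated macrophages, and Reg3g, a bactericidal lectin of the gut. Ear1 lay at 1.24, 0.44 and -0.34 with OS, at -1.66, 1.05 and -0.76 with OCKS, and at -9.37, -10.36 and -9.94 in control MEFs, which put it at least 321-fold and 171-fold higher. Retnla lay at 0.26, -0.60 and -1.88 with OS and at -2.75, -1.49 and -1.40 with OCKS, at least 141-fold and 63.8-fold over control MEFs. Reg3g was uneven. It lay at -0.59, -1.97 and -1.68 with OS but at -5.25, 0.55 and -3.46 with OCKS. OCKS replicate 2 was its highest array and OCKS replicate 1 its lowest among the treated ones, and the bounds were 88.3-fold and 35.7-fold.

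Interferon-stimulated genes gave 2 members of 12 silent genes (16.7%), Slfn4 and Slfn5, growth-regulating genes of the Schlafen family. Slfn4 lay at -3.50, -3.09 and -4.49 with OS and at -4.10, -4.38 and -4.45 with OCKS, at least 18.2-fold and 11.8-fold over control MEFs. Slfn5 lay at -4.40, -4.42 and -4.93 with OS and at -5.04, -3.74 and -5.07 with OCKS, at least 9.82-fold and 9.56-fold. In both genes the 2 treatments overlapped. Epsti1 and Ido1, which interferon also induces but which were in no list used here, were members as well. Ido1, which opens the breakdown of tryptophan to kynurenine, had bounds of 6.96-fold and 7.61-fold, and Epsti1 of 2.30-fold and 3.29-fold.

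Immune receptors and adhesion molecules gave 2 of 26 silent genes (7.69%). Sele, the E-selectin that activated endothelium uses to catch leukocytes, lay at -4.80, -3.51 and -5.90 with OS and at -5.94, -6.84 and -5.53 with OCKS, at least 8.57-fold and 3.33-fold over control MEFs. Clec2g, a C-type lectin, was even across the 6 treated arrays, between -5.77 and -5.03, with bounds of 5.22-fold and 6.45-fold. Markers of leukocytes went the other way. Of the 6 leukocyte markers (Ptprc, Cd52, Lyz2, Tyrobp, Aif1 and Csf1r) 6 were lower on every treated array than on every control array, and their summed level was 2.79 to 3.45 in control MEFs and -0.24 to 0.55 in treated MEFs, in log2 relative to the 75th percentile. The 4 endothelial markers were mixed. Kdr, the most abundant, was lower on every treated array, and their summed level was 2.70 to 2.87 in control MEFs and 1.56 to 1.92 in treated MEFs. Cdh5 and Tek were higher on every treated array than on every control array. Cdh5 had means of -8.44 in control MEFs, -5.78 with OS and -6.93 with OCKS, and Tek of -5.87, -5.07 and -4.70. The part of these cells in the immune genes was not tested.

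Liver, pancreas and gut genes gave 4 of 9 silent genes (44.4%). Mup3 and Mup6 encode major urinary proteins, pheromone carriers that the liver secretes, and Tdo2 the liver enzyme for the same tryptophan step as Ido1. Mup3 lay at -0.30, -1.19 and -0.73 with OS and at -0.39, -0.04 and 0.72 with OCKS, against -8.52, -10.10 and -8.99 in control MEFs, at least 141-fold and 251-fold over them. Mup6 was lower, at least 8.03-fold and 12.8-fold over control MEFs. Tdo2 was at least 6.58-fold over control MEFs with OS and 6.03-fold with OCKS. The Mup genes are near-identical copies of one another, so which of them the probes measured is uncertain, and the same holds for the Ear, Ssx, Sprr2 and olfactory receptor families.

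Xenobiotic metabolism gave 2 of 27 silent genes (7.41%), both carboxylesterases, which hydrolyse esters of drugs and lipids. Ces1f lay at 0.19, -0.47 and -0.77 with OS and at 0.05, -0.79 and 0.27 with OCKS, against -9.36, -10.36 and -10.38 in control MEFs. It stood at least 184-fold and 211-fold higher, with the 2 treatments mixed. Ces1d, its neighbour on chromosome 8 with 1 gene with a probe between them on GRCm38.p6, was at least 11.6-fold and 14.6-fold over control MEFs. In no list, but also genes of peroxisomes and conjugation, were Abcd2, a transporter of very long fatty acids into peroxisomes, and Glyat, a glycine acyltransferase of liver. The 6 treated arrays of Abcd2 lay between -3.44 and -2.99.

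Adipocyte markers were higher on the treated arrays and are given beside these genes, since Steap4, Ces1d, Ces1f, Abcd2, Mc2r, Hcar1 and Sucnr1 are also known from fat cells. Of the 4 markers (Adipoq, Plin1, Cidec and Fabp4) 4 were higher on every treated than on every control array, and none was off. Their summed level was 0.49 to 0.96 in control MEFs, 6.65 to 7.18 with OS and 7.06 to 7.45 with OCKS. In bulk RNA more cells of a type and more RNA per cell cannot be told apart, and the part of adipocyte-like cells in these genes was not tested. The adipocyte list itself held 9 silent genes, of which 0 were members.

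**Figure D3:**
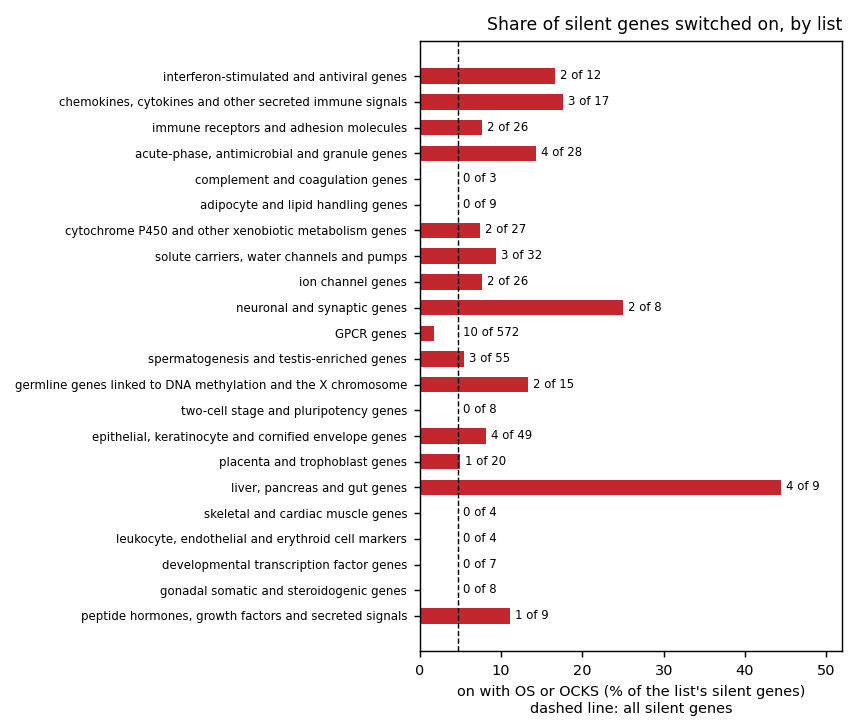
Share of the silent genes of each list that were on with OS or OCKS (x axis, percent; 22 lists on the y axis), with the number on and the number silent beside each bar and a dashed line at 4.65%, the share of all 1356 silent genes. Liver, pancreas and gut genes have the longest bar with 4 of 9, and GPCR genes lie under the line with 10 of 572, which lowers the line.

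The list with the most silent genes was that of G protein-coupled receptors. Of 572 silent genes 10 were members (1.75%), below the 4.65% of all silent genes. Mc2r, the receptor for the adrenal hormone ACTH, led them with bounds of 15.3-fold with OS and 24.3-fold with OCKS and lay between -4.56 and -3.07 on the treated arrays. Hcar1, a lactate receptor, followed at 6.92-fold and 12.4-fold, Drd1, a dopamine receptor, at 8.39-fold and 8.89-fold, and Htr1f, a serotonin receptor, at 2.71-fold and 3.07-fold. Another probe of Hcar1 was dimmer, on in 1 of 3 OS and 3 of 3 OCKS arrays. The other 6 were olfactory receptors, of which Olfr1033, Olfr1054 and Olfr1087 lie on chromosome 2. Olfr1054 had bounds of 4.71-fold and 6.65-fold. Of these 6, Olfr503 had the largest difference between the treatments, at -9.85, -8.60 and -6.62 with OS and at -6.55, -6.36 and -6.20 with OCKS.

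Neuronal and synaptic genes gave 2 of 8 silent genes (25%), Crh, the hypothalamic hormone that releases ACTH, and Nlgn1, a postsynaptic adhesion protein. Crh spread over the treated arrays, at -4.74, -6.34 and -3.40 with OS and at -5.20, -2.89 and -4.69 with OCKS, with bounds of 8.28-fold and 12.3-fold. Nptx1, a neuronal pentraxin in no list, was at least 14.1-fold and 11.7-fold over control MEFs. The hormone list added Calcb, the beta form of calcitonin gene-related peptide, with 1 of 9 silent genes (11.1%). Calcb lay at -3.24, -2.19 and -2.49 with OS and at -0.81, -4.93 and -1.89 with OCKS, at least 37.7-fold and 40.3-fold over control MEFs. Ion channels and gap junctions gave Kcnh1, a potassium channel, and Gjb6, a connexin, of 26 silent genes (7.69%), and solute carriers gave Slc6a14, Slc7a14 and Slc39a12, of 32 (9.38%). Kcnh1 had bounds of 6.49-fold with OS and 5.34-fold with OCKS, while Gjb6 was on for all 3 OCKS arrays, at least 5.28-fold, and for 2 of 3 OS arrays. Slc7a14, of a family of amino acid transporters, had bounds of 13.5-fold and 6.26-fold. Slc39a12, a zinc transporter, had bounds of 3.42-fold and 3.79-fold, and both of its probes were on for all 6 treated arrays. Slc6a14, an amino acid transporter, was on for all 3 OS arrays, at least 7.30-fold, and for 2 of 3 OCKS arrays.

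Epithelial and cornified envelope genes gave 4 of 49 silent genes (8.16%). Sprr1b and Sprr2h encode small proline-rich proteins and Lce3f a late cornified envelope protein, which harden the outer layer of skin, and Serpinb9g encodes a serine protease inhibitor. Sprr1b lay at -2.96, -2.23 and -4.33 with OS and at -3.07, -3.32 and -2.96 with OCKS, at least 26.0-fold and 27.1-fold over control MEFs. Sprr2h lay at -2.98, -2.39 and -5.84 with OS and at -5.12, -6.56 and -5.28 with OCKS, at least 17.6-fold and 4.67-fold. Lce3f lay at -1.90, -1.04 and -3.56 with OS and at -3.47, -5.39 and -3.54 with OCKS, at least 48.5-fold and 12.4-fold. In Sprr2h and Lce3f OS replicates 1 and 2 were above all 4 other treated arrays, and in Sprr1b OS replicate 1 was level with OCKS replicate 3. These 3 genes lie on chromosome 3 within the epidermal differentiation cluster, with 3 genes with a probe between Sprr2h and Sprr1b and 21 between Sprr1b and Lce3f on GRCm38.p6. Chromosome 3 held 8 of the 63 genes among 52 silent genes (15.4%, against 4.65% of all silent genes), and these 3 genes are among the 8. It had the largest share of any chromosome, with 8.51% on chromosome 14 as the next, and that was not tested. The 4 epithelial markers (Epcam, Cdh1, Krt8 and Krt18) summed to 0.88 to 1.17 in control MEFs, 0.11 to 1.33 with OS and -1.01 to 2.63 with OCKS, and 1 of the 4 was higher on every treated array.

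Spermatogenesis and testis-enriched genes gave 3 of 55 silent genes (5.45%), among them Crisp3, a cysteine-rich secretory protein of salivary gland and other glands, and Spint4, a protease inhibitor of the epididymis. Ssx9 and Ssxb2, X-linked genes of a family that is silenced by DNA methylation in somatic tissue, were 2 of 15 silent genes of their list (13.3%). Ssx9 lay at -4.02, -2.89 and -2.58 with OS and at -2.01, -2.63 and -1.93 with OCKS, against -8.85, -10.09 and -9.33 in control MEFs and -7.96, -8.12 and -7.79 in PGCs, which made it at least 26.2-fold and 51.4-fold higher than control MEFs. The other probe of Ssx9 was dimmer, on in 2 of 3 OS and 1 of 3 OCKS arrays. Ssxb2 was at least 3.29-fold and 7.01-fold over control MEFs and is separated from Ssx9 by 1 gene with a probe. Prl8a2, a placental hormone of the prolactin family, was the only member among 20 silent placenta genes (5%), at -3.54, -2.61 and -4.75 with OS and at -4.50, -6.23 and -5.82 with OCKS, at least 18.1-fold and 4.92-fold over control MEFs. Bcl2l10, a survival factor known from oocytes, was in no list, was between -10.09 and -9.87 on the PGC arrays, and was at least 3.16-fold and 7.48-fold over control MEFs. Lists for complement and coagulation, two-cell stage, muscle, blood and endothelial markers, developmental transcription factors and gonadal somatic cells gave 0 members, from 3 to 8 silent genes each.

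Of the 18 members in no list, Tmigd1, an adhesion protein of kidney and gut epithelium, was the tallest. It lay at -1.51, -1.50 and -1.32 with OS and at -1.23, -0.80 and -1.19 with OCKS, and was at least 86.3-fold and 111-fold over control MEFs. B3galt2, a galactosyltransferase, was at least 22.0-fold and 47.5-fold over control MEFs. Lower down were Nat8f5 (5.39-fold and 8.43-fold), Smim5 (3.39-fold and 5.04-fold), Adam28, a membrane protease (3.91-fold and 3.85-fold), Tarm1, a receptor of myeloid cells (4.18-fold and 2.95-fold), Fam162b (3.41-fold and 2.79-fold) and Ms4a4b, a membrane protein of T cells (1.85-fold and 2.44-fold). Sucnr1, the succinate receptor, was on for all 3 OCKS arrays, at least 4.32-fold, and for 2 of 3 OS arrays. The members near the limit of the choice were Tnfaip8l3, Spint4 and Il1f9, with larger bounds of 0.82, 1.08 and 1.14 in log2. Outside it, 35 genes missed by 1 treated array, led by Crisp1, Dsc3 and Sectm1b with larger bounds of 1.75, 1.60 and 1.59. With the PGC arrays as the reference the bounds were nearly the same, for example at least 861-fold for Steap4 and 314-fold for Cxcl13 with OS, since the dimmest signal well above background was alike there. For comparison, of 881 genes silent in control MEFs but seen in PGCs 101 were on with OS or OCKS (11.5%), a difference the choice of groups takes part in and that was not tested.

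Whether OCKS, whose plasmid also carries Klf4 and c-Myc, and OS gave these genes different levels was tested, since the choice treated both alike. The choice was not free of that difference, as 9 genes entered through OS alone and 4 through OCKS alone. Rassf10, Crisp3, Olfr503 and Gjb6 are among these, and for such genes the interval and p-value are no clean test. Every gene tested had passed the same filter of all 3 arrays of either treatment. No member differed at an adjusted p under 0.001 with at least a 2-fold change (limma over 15699 genes, 0 called, 0.0%), and 0 of 63 had an adjusted p under 0.05 (0.166% of all genes tested had one). At an unadjusted p under 0.05 there were 14 of the 63 (22.2%), against 18.3% of all genes tested, and 9 of the 14 were higher with OS. The differences of the 63 ran from -3.06 to 1.99 in log2 (OCKS minus OS), with a median of 0.08, and 45 were under 1 in size. The median standard error of these differences was 0.462. The arrays of the 2 treatments did not overlap for 10 of the 63, against 20.5% of all genes tested. On the 1 slide that held both treatments, OCKS replicate 1 minus OS replicate 1 had the same sign as the whole comparison, which contains these 2 arrays, for 47 of the 63. The share over all genes tested was not counted, so that number is a description only.

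Rassf10, a Ras-association domain gene, had the smallest p. It lay at -4.71, -4.14 and -6.72 with OS and at -7.46, -7.73 and -7.17 with OCKS, with a difference of -2.26 (95% confidence interval -3.46 to -1.06, adjusted p = 0.0981). Crisp3 differed by -3.06 (-4.96 to -1.16, adjusted p = 0.128) and Csf2 by -2.41 (-4.37 to -0.45, adjusted p = 0.192). Steap4, with no overlap, differed by -1.24 (-2.24 to -0.24, adjusted p = 0.186). On the OCKS side, Olfr503 differed by 1.99 (0.59 to 3.39, adjusted p = 0.150), Gjb6 by 1.45 (0.33 to 2.57, adjusted p = 0.177), Bcl2l10 by 1.24 (0.30 to 2.19, adjusted p = 0.171) and Ssx9 by 0.97 (0.12 to 1.82, adjusted p = 0.22). In Cxcl13, Ces1f, Abcd2 and Slfn5 the arrays of the treatments overlapped.

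**Figure D4:**
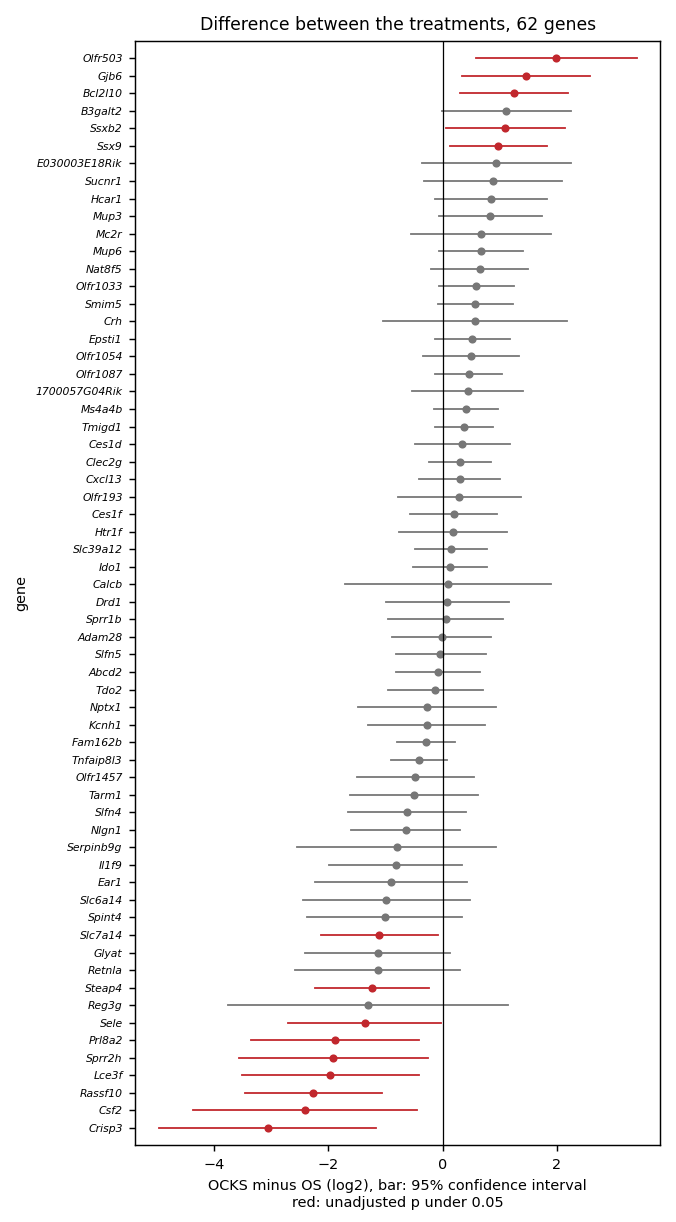
Difference between the treatments (OCKS minus OS, log2; x axis) for 62 of the 63 genes (y axis), with bars for the 95% confidence interval of the limma fit and red for an unadjusted p under 0.05. Red intervals (14 genes) leave out 0, 9 on the OS side and 5 on the OCKS side, and no gene has an adjusted p under 0.05.

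For some of these genes the OS replicates did not behave alike. In 6 of the 63 (9.52%), OS replicates 1 and 2 were both at least 1 log2 unit above the other 4 treated arrays, OS replicate 3 included, against 0.618% of all genes tested. This pattern was picked after its values were seen and has no test. Rassf10 and Crisp3, which show it, entered the choice through OS alone. Genes tested as a whole were not chosen for silence in control MEFs and PGCs, so the shares are not of like genes. The 6 genes were Csf2 (a gap of 2.55), Sprr2h (2.14), Rassf10 (2.01), Crisp3 (1.61), Lce3f (1.57) and Slc7a14 (1.19), which hold a cytokine and a pair of epidermal genes among other roles. Prl8a2, Steap4, Retnla, Sele and Glyat had gaps of 0.96, 0.84, 0.81, 0.72 and 0.70. Over the 63, OS replicate 3 was the lowest OS array for 28 and the highest for 18. Among genes that missed the choice, Il1f6, interleukin-36 alpha, showed it in full at -5.21, -4.58 and -9.82 with OS and -9.85, -9.45 and -9.54 with OCKS; it was named after its values were seen. Without OS replicate 3, 9 of the 63 had an adjusted p under 0.05 (6.22% of all genes then tested), 6 of them higher with OS. Those 6 were the 6 genes of the pattern, whose low OS array was the one left out. Their p-values therefore follow from the pattern and are no test of it. Among the 9 were Rassf10 (-3.02, adjusted p = 0.00107), Csf2 (-3.72, adjusted p = 0.00137) and Sprr2h (-2.97, adjusted p = 0.00551) on the OS side. On the OCKS side were Olfr503 (2.86, adjusted p = 0.00403) and Bcl2l10 (1.80, adjusted p = 0.00872), whose highest OS array was replicate 3. Leaving out that array widens their difference by itself, and Olfr503 entered through OCKS alone, so their p-values are no test either. Without OCKS replicate 2, Reg3g differed by -2.94 (adjusted p = 0.0398), against -1.31 with it (adjusted p = 0.56). The cause of the differences between replicates was not tested.

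**Figure D5:**
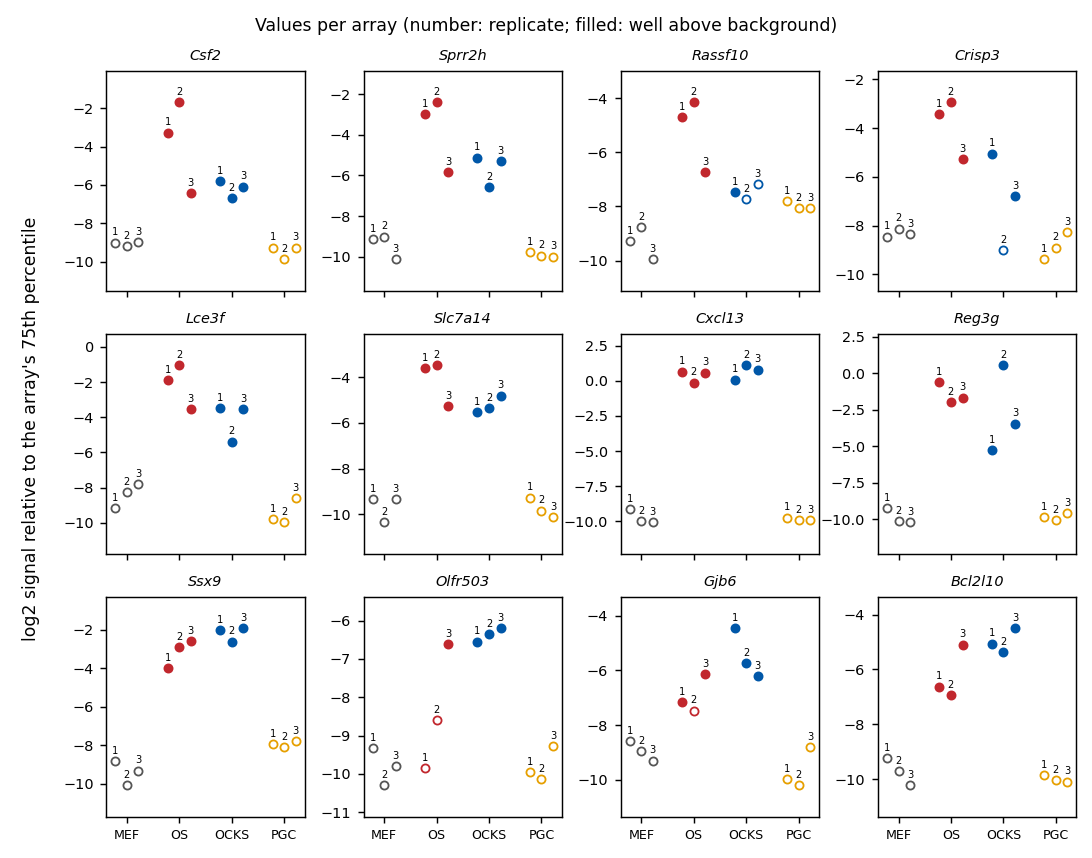
Values of 12 of the genes on each array (log2 signal relative to the array's 75th percentile), by group, with the replicate number above each dot and filled dots for arrays well above background. In Csf2, Sprr2h, Rassf10, Crisp3, Lce3f and Slc7a14 OS replicates 1 and 2 stand over OS replicate 3 and the OCKS arrays, while Cxcl13 is level and Reg3g is spread over the OCKS arrays from -5.25 to 0.55.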

How the data were processed

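Gene expression was measured with single-colour Agilent whole mouse genome arrays, 3 a group. Per the file headers the scanner output was made with Feature Extraction 10.7.3.1. The authors deposited for each spot an intensity from which the scanner software had subtracted the background, the median intensities of the spot and its surroundings, and flags. They also deposited a log2 value table, centred per probe, in which 10 of 12 columns match the scanner output. The columns of PGC replicates 2 and 3 do not (correlations with their arrays of 0.046 and 0.568) and were not used, and silence in PGCs rests on the scanner output of all 3 PGC arrays. The members, lists and thresholds were chosen with earlier results of these data known.

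Of 39429 probes, 92 were dropped for uneven spots, and 25983 of the 39337 used were named through RefSeq accessions, which left 13354 without a name. The intensity was taken to log2 and each array's 75th percentile (1049.7 to 2708.5, against a median background of 23 to 33.5) was subtracted. A probe counted as on where most of its spots were flagged. The probe with the highest mean stood for its gene. The number of arrays limits the precision.

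The treatments were compared with limma 3.58.1 in R 4.3.3, in 1 fit of all 12 arrays with Benjamini-Hochberg adjustment, over genes well above background on all 3 arrays of either group. The fit was also run on simulated arrays with independent noise. These held no slide or replicate structure, so they do not bear on the uneven replicates. Genes named in the text are the 20 with the largest bound on all 6 treated arrays, up to 4 per list, members near the limit, and neighbours, and genes with an unadjusted p under 0.05, which were added after their values were seen, as were the members described from no list. The replicate numbers did not pair OS with OCKS arrays. Alternatives were other scalings (spike-ins, quantile, normexp with an offset of 50 on median signals), other flags, slide blocks and leaving out each array. The values of 1 member are not reported here, although it is counted.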

Additional observations from a re-analysis of the deposited data

Results flagged for a closer look

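Probes without a gene name took no part in the comparisons. Of 13354 such probes 1997 were silent on all MEF and PGC arrays, and 47 of these (2.35%) were on with OS or OCKS on all 3 arrays. They were singled out because their signal lay above that of the control arrays in data not otherwise used.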

How the results depend on the processing

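The number of members was 63. A common floor of signal in place of the flag gave 118 genes (57 of the 63 among them), silence on at least 2 of 3 arrays 98, both treatments required 50, and silence by the positive and significant flag 5 (Ces1f, Clec2g, Olfr193, Slc6a14 and Tmigd1). Leaving out each array gave 64 to 76. The median bound over control MEFs was 2.87 (OS) and 2.80 (OCKS) in log2. It became 0.99 and 0.96 with normexp and quantile normalization, 3.66 and 3.12 with spike-in scaling, and for OCKS 2.93 with quantile normalization and 2.85 with the percentile over probes detected on all arrays. Leaving out each array gave 2.72 to 3.16 (OS) and 2.65 to 3.09 (OCKS). Between OCKS and OS the number of members called was 0 in every setting tried, including the replicate block, which gave 0 (the same-number correlations were -0.361, -0.281 and 0.161). At an adjusted p under 0.05 with no fold minimum it was 0, but 15 with spike-in scaling (17.7% of all genes passed), which shifted the median of all genes by -0.467 and put all 15 lower with OCKS, 9 without OS replicate 3, 2 with normexp and quantile normalization (Steap4 and Ssxb2, each 0.0421) and 1 without OCKS replicate 2 (Reg3g, -2.94, adjusted p = 0.0398), and these 4 settings at that threshold were chosen after seeing the data. The 14 members at an unadjusted p under 0.05 kept their sign in all 252 values. These values come from the arrays in which the 14 were picked and give no further support. Dnmt1 stayed lower than in control MEFs in every setting. The cause of these differences was not tested.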
